A study of Mus musculus with 8 samples.

Results

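Oncostatin M and its relatives signal through gp130, and the genes described here encode that receptor (Il6st), the receptor chains that pair with it (Osmr, Lifr, Il6ra and Il11ra1), the kinases bound to them (Jak1, Jak2 and Tyk2) and the transcription factor they activate (Stat3). These 9 genes were taken by symbol from the 31610 genes of a read count table, all 9 had a row, and all 9 passed the low-count filter that left 18874 genes to test. The set was drawn up with earlier results for the same libraries known, among them lower Osmr counts in 1 group, so the group differences of the 9 genes are given as a description and support nothing. The libraries were made from endothelial cells sorted by flow cytometry from lungs of C57BL/6J mice. Mice of 1 group had received a control adeno-associated virus (AAV, a gene delivery vector) and those of the other an AAV labelled nANGPTL4, the N-terminal part of the lipoprotein lipase inhibitor ANGPTL4. There were 4 libraries of independent biological replicates per group. The sources used here do not give the age and sex of the mice, the promoter and dose of the vectors or the time after delivery.

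gp130 is the shared signalling chain of the interleukin-6 family. Interleukin-6 and interleukin-11 first bind their own receptor (Il6ra or Il11ra1) and then bring gp130 chains together, leukaemia inhibitory factor joins gp130 to Lifr, and mouse oncostatin M joins gp130 chiefly to Osmr. The receptors have no enzyme activity of their own, so the bound Janus kinases phosphorylate STAT3, which enters the nucleus, and they also feed the ERK pathway through the phosphatase SHP2. SOCS3 is induced by STAT3 and shuts the receptor off again. In endothelium, oncostatin M and soluble interleukin-6 receptor are known to induce adhesion molecules and chemokines.

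Promoter sequence was searched in the 9 genes and in Socs3, in windows of 300 bases (250 before to 50 from the RefSeq transcription start, build GRCm38.p6). RefSeq windows were matched by symbol for all 9. The motifs were TTCNNNGAA, the core bound by STAT proteins, TGANTCA, the AP-1 core, and CCGGAA, an ETS core, each read on both strands. The STAT core was found in the window of Socs3 but in those of 0 of the 9 genes, against 8.30% of 32851 windows of 27025 genes. The AP-1 core was found in 1 of the 9, Osmr (7.81% of all windows), and the ETS core in 1 of the 9, Il6st (14.9% of all windows). The sequences below are those of Osmr, the member that differed most between the groups, of Il6st, the chain it pairs with, and of Socs3, the classical STAT3 target and the only one of these with a STAT core. Each is printed 5′ to 3′ on the strand of its gene, from 230 bases before the start to 20 bases from it, with motif matches in capitals.
Osmr, chr15:6874294-6874543, minus strand: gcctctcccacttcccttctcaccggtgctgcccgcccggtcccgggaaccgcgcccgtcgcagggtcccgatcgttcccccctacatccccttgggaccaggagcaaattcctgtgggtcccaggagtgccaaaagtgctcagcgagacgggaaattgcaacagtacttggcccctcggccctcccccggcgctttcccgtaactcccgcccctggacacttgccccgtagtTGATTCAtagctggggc
Il6st, chr13:112463840-112464089, plus strand: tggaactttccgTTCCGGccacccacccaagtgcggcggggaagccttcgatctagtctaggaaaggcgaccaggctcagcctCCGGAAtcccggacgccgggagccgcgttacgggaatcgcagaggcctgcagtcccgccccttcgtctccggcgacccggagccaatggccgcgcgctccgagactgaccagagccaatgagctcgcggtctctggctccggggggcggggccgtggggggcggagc
Socs3, chr11:117969347-117969596, minus strand: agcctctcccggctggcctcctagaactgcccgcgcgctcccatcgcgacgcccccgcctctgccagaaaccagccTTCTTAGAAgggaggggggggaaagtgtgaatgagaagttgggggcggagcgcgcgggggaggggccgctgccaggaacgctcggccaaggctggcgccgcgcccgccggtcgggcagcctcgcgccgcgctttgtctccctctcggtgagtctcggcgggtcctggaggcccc
In these windows the AP-1 core of Osmr (TGATTCA) begins at base 4 of the RefSeq transcript. In the GENCODE M21 annotation the Osmr gene begins further upstream, at 6874969, so this window lies inside the gene. The windows of Lifr and Il11ra1 also lie inside their annotated genes. The matches of Il6st begin 218 and 147 bases before the start, and the STAT core of Socs3 (TTCTTAGAA) 154 bases before it. A match describes the letters of the window and was not tested as a binding site.

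Total counts ranged from 83183122 to 114337333 per library. Endothelial marker transcripts were abundant in both groups: 10 of 10 listed genes were detected, with a summed level of 18275 to 19047 CPM (counts scaled to a common library size, with TMM factors) in control AAV and 17641 to 18329 CPM in nANGPTL4 AAV. Fibroblast and mural markers summed to 66.6 to 138 CPM and 77.3 to 168 CPM, epithelial markers to 84.2 to 215 and 180 to 286 CPM, and myeloid markers to 19.1 to 40.8 and 30.5 to 50.5 CPM. Lymphocyte markers summed to 1.97 to 2.52 CPM in control AAV and 2.69 to 5.81 CPM in nANGPTL4 AAV, the only list whose groups did not overlap (exact two-sided permutation test, p = 0.0286, the smallest 4 against 4 can give, and 0.229 after Benjamini-Hochberg adjustment over 8 lists). Erythroid and platelet markers summed to 50.2 to 96.8 and 82.5 to 95.1 CPM. Of the endothelial markers 9 of 10 had lower values under nANGPTL4 AAV (median log2 fold change -0.05), while 10 of 10 tested erythroid and platelet markers (0.53), 8 of 10 epithelial (0.20), 4 of 5 myeloid (0.41) and 5 of 5 lymphocyte markers (0.99) had higher values. The part of these cells in the levels below was not tested. In bulk samples, fewer cells of a type and less RNA per cell cannot be told apart.

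Per length of transcript, gp130 was by far the most abundant of the receptor transcripts, and the interleukin-6 receptor the scarcest. In control AAV the level per length, in CPM per kb of annotated exons, was 99.7 for Il6st, 28.8 for Lifr, 7.53 for Osmr, 4.16 for Il11ra1 and 0.338 for Il6ra. Lifr transcripts thus stood above those of Osmr in these sorted cells, while receptor protein and pairing were not measured. The Lifr and Osmr ranges over the 8 libraries, 26.2 to 31.5 and 5.44 to 7.90 CPM per kb, did not overlap. Of the summed length-scaled level of these 5 receptor genes in control AAV, Il6st held 70.9% ± 0.836, Lifr 20.5% ± 0.989, Osmr 5.37% ± 0.344, Il11ra1 2.97% ± 0.349 and Il6ra 0.243% ± 0.0614 (SD, n = 4). With the longest transcript as the length in place of all exons, the Osmr share was 9.05%, because much of its annotated exon sequence lies outside that transcript.

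Among the kinases, Jak1, which is the main kinase of gp130 receptors, was at 58.2 CPM per kb in control AAV, against 13.7 for Tyk2 and 13.3 for Jak2. Stat3 was at 39.9 CPM per kb. Over the 8 libraries the ranges of neighbours in this order of 9 genes (Il6st, Jak1, Stat3, Lifr, Tyk2, Jak2, Osmr, Il11ra1, Il6ra) did not overlap, apart from Tyk2 and Jak2. With the longest transcript as the length, Osmr stood above Jak2, with overlapping ranges. Jak3, the kinase of the common gamma chain receptors and not one of the 9, held 38.6% ± 1.45 of the length-scaled JAK level in control AAV, close to Jak1 at 42.0% ± 1.27 (SD, n = 4). Of the exonic bases of Jak3, 7.55% overlap Insl3 on the same strand, so a part of its reads may not be its own.

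Osmr, the oncostatin M receptor chain, lies on chromosome 15 at 6813577 to 6874969 (minus strand, mm10; ENSMUSG00000022146.12). In library order, its read counts were 8719, 10456, 7513 and 8517 under control AAV and 6468, 6674, 8362 and 7340 under nANGPTL4 AAV. Scaled, these were 95.7, 92.5, 90.9 and 85.7 CPM against 69.9, 65.9, 76.2 and 71.4 CPM. Every nANGPTL4 AAV library lay below every control AAV library. The means were 91.2 ± 4.19 and 70.9 ± 4.24 CPM (SD, n = 4 each), a change of -22.3% and a log2 fold change (log2FC, nANGPTL4 AAV over control AAV) of -0.36 (SE 0.05). The SD within a group was 5.28% of the mean on average. Because Osmr was chosen with its lower counts known, the size of the difference beside this spread supports nothing.

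Of the 9 genes, 1 (Osmr) was called by the edgeR test over all genes and 1 of 9 had groups that did not overlap, with lower levels. The background was 0.138% of the 18874 genes called in either direction and 6.99% with nANGPTL4 AAV wholly below control AAV (3.89% wholly above, as 0 of the 9 were). Since Osmr was chosen for this contrast, nothing is read from these shares. The call also rested on all 8 libraries being used: without any 1 of them Osmr was not called, though its log2FC stayed between -0.39 and -0.32. It was not called with upper quartile scaling, library size only or the replicate number as a block either. DESeq2 called it, among 956 genes in all.

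**Figure D1:**
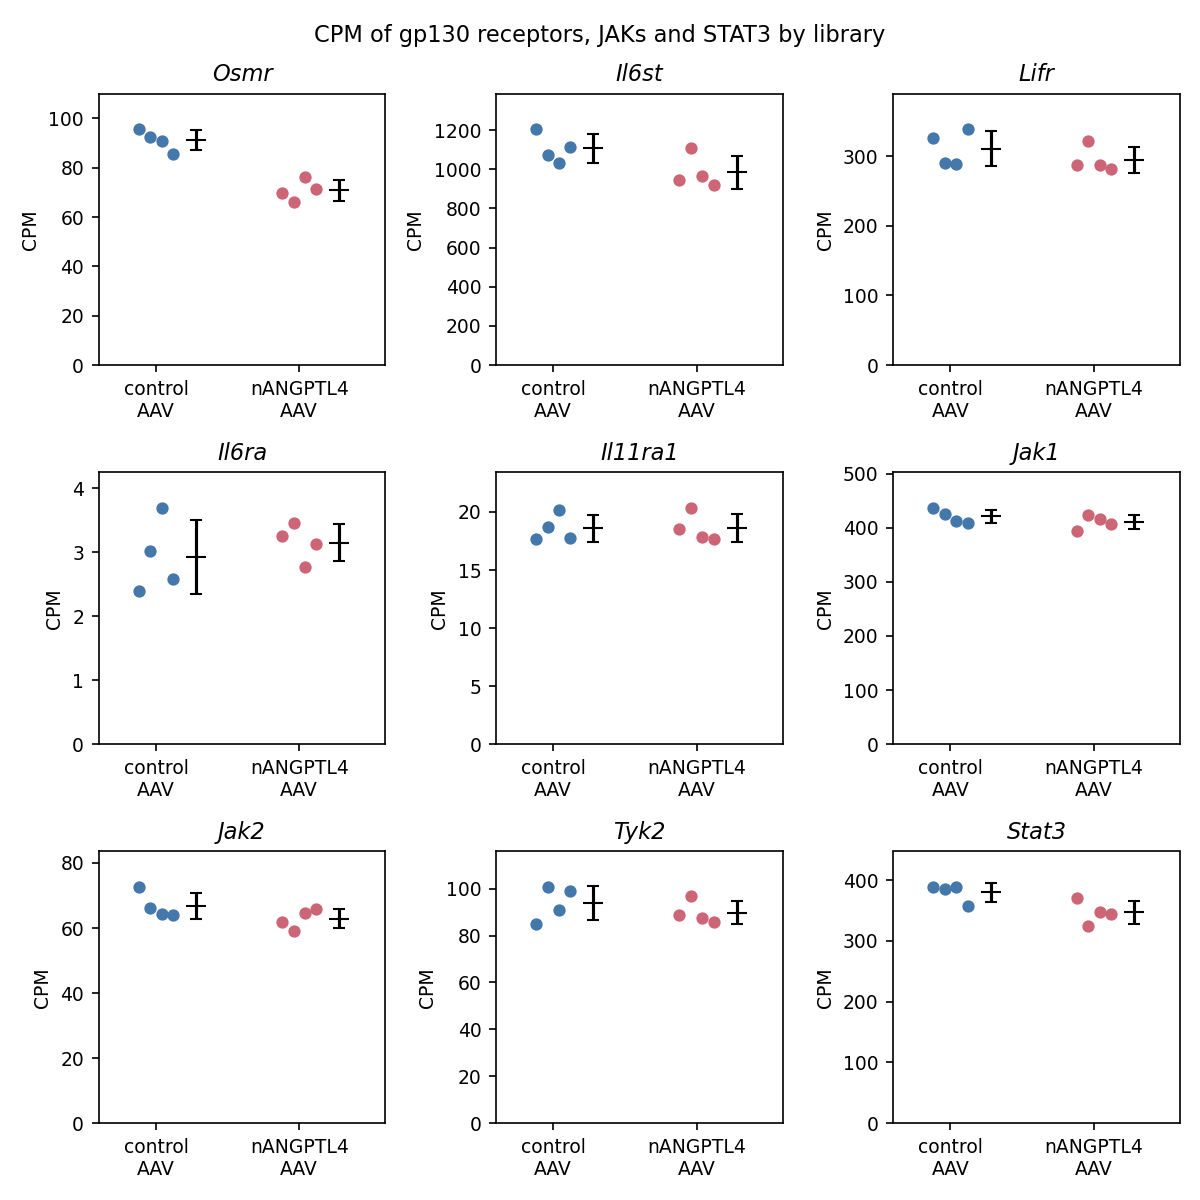
CPM of the 9 genes, 1 panel per gene with its own axis from 0, 1 point per library, and the mean with SD of the 4 libraries as a bar beside them. Osmr has 85.7 to 95.7 CPM in control AAV and 65.9 to 76.2 CPM in nANGPTL4 AAV, while in the other 8 genes the groups overlap.

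Osmr shares none of its exonic bases with another annotated gene, and 0.330% of its 31-base stretches recur elsewhere, so its counts are little exposed to misassignment. Rictor, a subunit of mTOR complex 2 whose gene ends 13175 bases from that of Osmr, was at 93.1 ± 5.20 and 93.9 ± 6.13 CPM (SD, n = 4 each), a log2FC of 0.01 (SE 0.06). Egflam, a matrix protein gene beyond Lifr, was at 157 ± 12.5 and 159 ± 21.4 CPM, a log2FC of 0.02 (SE 0.09). The other tested genes around Osmr and Lifr were Fyb, at 1.08 ± 0.304 and 1.20 ± 0.301 CPM (log2FC 0.14, SE 0.23), and the pseudogene Gm7666, at 0.606 ± 0.0875 and 0.580 ± 0.0534 CPM (-0.06, SE 0.17). These 4 neighbours were named after their values were seen.

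Il6st, which encodes gp130 (chromosome 13, 112464070 to 112510086, plus strand, ENSMUSG00000021756.12), was at 1206, 1074, 1034 and 1114 CPM in control AAV libraries 1 to 4. In nANGPTL4 AAV libraries 1 to 4 it was at 947, 1109, 964 and 918 CPM. Library 2 of the nANGPTL4 AAV group lay within the control AAV range and the other 3 below it. The means were 1107 ± 73.7 and 985 ± 85.2 CPM (SD, n = 4 each), a log2FC of -0.17 (SE 0.07).

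Lifr, which binds leukaemia inhibitory factor (chromosome 15, 7090614 to 7197489, plus strand, ENSMUSG00000054263.11), lies 215644 bases from Osmr. It was at 326, 291, 288 and 339 CPM in control AAV and 288, 322, 288 and 282 CPM in nANGPTL4 AAV. The groups overlapped, with library 2 again the highest of the nANGPTL4 AAV group. The log2FC was -0.08 (SE 0.07). Il6st and Lifr had r = 0.83 over 8 libraries after centring within groups. Pairs among the genes of the receptors, kinases and Stat3 ran from -0.80 (Jak2 with Tyk2) to 0.86 (Il6ra with Il11ra1). Osmr had 0.80 with Jak2 but negative values with both of these chains, -0.27 with Il6st and -0.52 with Lifr. These values are a description in which all points share the library scaling, and no joint control of the receptor chains is read from them.

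The ratio of Osmr to the chains around it does not depend on how libraries are scaled. Per 100 Il6st reads libraries 1 to 4 held 7.93, 8.62, 8.79 and 7.69 Osmr reads under control AAV and 7.38, 5.94, 7.90 and 7.78 under nANGPTL4 AAV. Control AAV library 4 lay below nANGPTL4 AAV libraries 3 and 4, so the ranges overlapped, though only between 7.69 and 7.90. Per 100 Lifr reads there were 29.4, 31.8, 31.5 and 25.3 Osmr reads in control AAV and 24.3, 20.5, 26.5 and 25.3 in nANGPTL4 AAV. Control AAV library 4, which has the lowest Osmr and the highest Lifr of its group, lay among the nANGPTL4 AAV libraries. The separation of the groups in Osmr CPM was therefore not found in either ratio, though both means were lower under nANGPTL4 AAV. They were 8.26 ± 0.527 in control AAV and 7.25 ± 0.900 in nANGPTL4 AAV per 100 Il6st reads. Per 100 Lifr reads they were 29.5 ± 3.03 and 24.1 ± 2.61 (SD, n = 4 each).

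**Figure D2:**
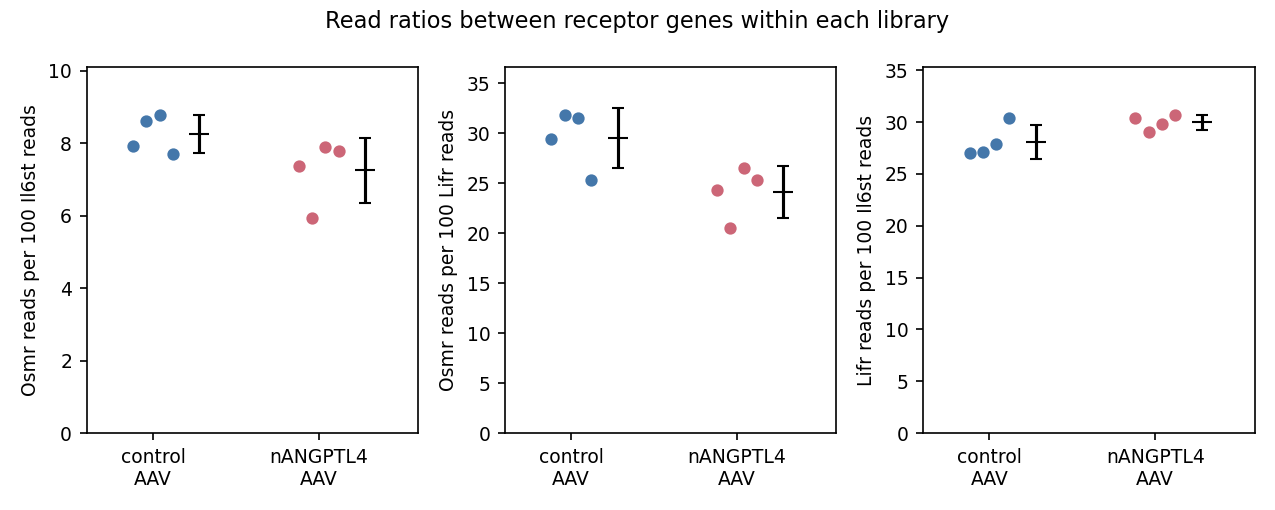
Reads of 1 receptor gene per 100 reads of another in each library, with the mean and SD of 4 libraries beside the points. Osmr per 100 Il6st reads runs from 7.69 to 8.79 in control AAV and from 5.94 to 7.90 in nANGPTL4 AAV, and in each panel the groups overlap.

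The 2 receptors that bind their cytokine before gp130 does differed between the groups by no more than their SE. Il11ra1 (chromosome 4, ENSMUSG00000073889.10) was at 17.7, 18.7, 20.2 and 17.8 CPM in control AAV and 18.5, 20.4, 17.8 and 17.7 CPM in nANGPTL4 AAV, with a log2FC of -0.00 (SE 0.07). Of its 31-base stretches, 57.7% recur in its near copy Gm13305, so its level is uncertain. Il6ra (chromosome 3, ENSMUSG00000027947.11) had 218 to 350 counts per library, or 2.39 to 3.69 CPM in control AAV and 2.76 to 3.46 CPM in nANGPTL4 AAV, and a log2FC of 0.11 (SE 0.14). Its within-group SD, 14.5% of the mean on average, was the widest of the 9 genes, and its counts were the lowest. Part of Il6ra (2.80% of its exonic bases) overlaps the antisense gene Gm42809. Markers of myeloid cells, which carry this receptor, had 5 of 10 genes under 1 CPM in every library, and the 5 that were tested had a median log2FC of 0.41, with 4 of 5 positive. Their summed level of 19.1 to 50.5 CPM was above that of Il6ra in every library, and their part in its level was not tested.

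Of the 9 genes, Jak1 varied least within groups. Jak1 (chromosome 4, ENSMUSG00000028530.14) was at 437, 425, 413 and 409 CPM in control AAV and 394, 423, 417 and 407 CPM in nANGPTL4 AAV, with an SD of 3.04% of the mean within groups and a log2FC of -0.04 (SE 0.04). Jak2, at 64.0 to 72.6 CPM in control AAV and 59.1 to 65.9 CPM in nANGPTL4 AAV, had a log2FC of -0.09 (SE 0.05). Tyk2, at 85.0 to 101 CPM and 85.8 to 96.8 CPM, had one of -0.07 (SE 0.06), and 8.07% of its exonic bases overlap the antisense gene 1700084C06Rik. All 3 had overlapping groups, and the length-scaled makeup of the JAK transcripts was alike, with Jak1 at 42.0% and 42.4%, Jak3 at 38.6% and 38.5%, Tyk2 at 9.86% and 9.75% and Jak2 at 9.57% and 9.35% in control AAV and nANGPTL4 AAV.

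Stat3 (chromosome 11, 100885098 to 100939540, minus strand, ENSMUSG00000004040.16) was at 388, 385, 389 and 357 CPM in control AAV and 370, 325, 347 and 344 CPM in nANGPTL4 AAV. The groups overlapped, with control AAV library 4 and nANGPTL4 AAV library 1 each within the range of the other group, and control AAV library 4 lay apart from the other 3 of its own. The means were 380 ± 15.3 and 347 ± 18.5 CPM (SD, n = 4 each), a log2FC of -0.13 (SE 0.05). Over the 9 genes the median log2FC was -0.08, beside 0.01 for all 18874 genes and -0.03 for the 9256 with a mean log2 CPM of at least 3. The sign was negative in 8 of 9, with Il11ra1 at -0.0004. The background of 47.8% is over all tested genes, low-count ones included, and was not counted for the 9256. Negative values were found in 7 of 9 with RLE size factors. With upper quartile scaling or library size only it was 6 of 9, where Jak1 and Il11ra1 turned positive.

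Genes whose level followed that of Osmr and Stat3 from library to library were picked from 9255 genes by the highest Pearson r of log2 CPM, centred within groups, over 8 libraries. With so many genes and 8 libraries, high values arise readily. For Osmr they were Psmd1, a proteasome subunit (r = 0.99), Vmp1 of autophagy (0.99), the mitochondrial ribosomal gene Mrps7 (0.98), Donson (0.97) and the ubiquitin-conjugating enzyme Ube2s (0.97), and their log2FCs lay between -0.13 and 0.02, against -0.36 for Osmr. For Stat3 the first was Bcl2l1, which encodes the survival protein BCL-XL and stands in the list of STAT3-responsive genes (r = 0.96, log2FC -0.21, SE 0.08), followed by Slc35e4, Cep85l, Utp18 and Tmem185b (0.95 to 0.96).

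Outside the 9 genes, 7 lists of pathway genes held 88 genes, of which 87 had a row and 81 were tested. Of these 81, 1 was called lower and 0 higher by edgeR's quasi-likelihood test with Benjamini-Hochberg adjustment over all genes, where the background was 0.0901% lower and 0.0477% higher. The called gene was Hif1a, whose result was known when its list was written, so nothing is read from this share. At an unadjusted p under 0.05 there were 20 lower and 3 higher, beside 10.3% and 7.35% of all genes. The lists were chosen with earlier results of these data known. Their counts and medians, here and below, are therefore a description and support nothing. The median log2FC of the 81 was -0.06, and -0.02 with upper quartile scaling or library size only. The median of all tested genes moved alike, from 0.01 to 0.05 with either of these scalings. For the 9256 genes with a mean log2 CPM of at least 3 it was -0.03 with TMM scaling. DESeq2 called 8 of the 81, all with negative values, among them Hif1a, Adam10, Adam17, Bcl3, Fgl2, Ptpn2 and Socs6. Over all 18874 genes it called 956, of which 648 were lower. The DESeq2 counts here and below thus have a higher background than those of edgeR.

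The ligands were nearly silent in these cells. Of 12 ligand genes 8 were tested, and 0 were called by edgeR or by DESeq2 (1 lower at an unadjusted p under 0.05 in edgeR). For Osm, Il6 and Il11 DESeq2 gave no adjusted p, so it could not call them. Osm, the oncostatin M gene, had 29, 4, 15 and 18 counts in control AAV and 20, 28, 8 and 17 in nANGPTL4 AAV, or 0.179 ± 0.116 and 0.183 ± 0.0862 CPM (SD, n = 4 each). Il6 was at 0.212 ± 0.0452 and 0.124 ± 0.0604 CPM (log2FC -0.77, SE 0.35, edgeR adjusted p = 0.280), Lif at 0.588 ± 0.147 and 0.469 ± 0.132 CPM and Il11 at 0.175 ± 0.0435 and 0.239 ± 0.120 CPM. The exception was Clcf1, which encodes a cytokine that acts through the CNTF receptor, gp130 and Lifr, at 23.7 ± 2.64 and 23.7 ± 2.28 CPM; it was named after its values were seen, and 8.17% of its exonic bases overlap another gene on the same strand.

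Of the other receptors of the family, Il27ra, the interleukin-27 receptor, was at 3.82 ± 0.402 and 3.70 ± 0.380 CPM, and Cntfr, the receptor for ciliary neurotrophic factor, at 0.667 ± 0.537 and 0.574 ± 0.211 CPM. Il31ra, which pairs with Osmr to bind interleukin-31, had 14 to 35 counts per control AAV library and 34 to 75 per nANGPTL4 AAV library. This is 0.250 ± 0.102 and 0.472 ± 0.151 CPM (log2FC 0.91, SE 0.32, edgeR adjusted p = 0.175), with overlapping groups. None of the 3 tested receptor genes was called by edgeR or by DESeq2, and 1 had an unadjusted p under 0.05.

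Among the other kinases and STATs, 7 were tested, 0 were called by edgeR or by DESeq2, and 0 had an unadjusted p under 0.05. Stat5a, activated by many cytokines, was at 27.3 ± 1.25 and 28.7 ± 2.37 CPM, Stat5b at 159 ± 4.28 and 155 ± 2.08 CPM and Jak3 at 287 ± 17.7 and 276 ± 13.2 CPM (SD, n = 4 each). Stat5a and Stat5b share 11.5% and 15.1% of their 31-base stretches with each other, so these counts are less certain.

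**Figure D3:**
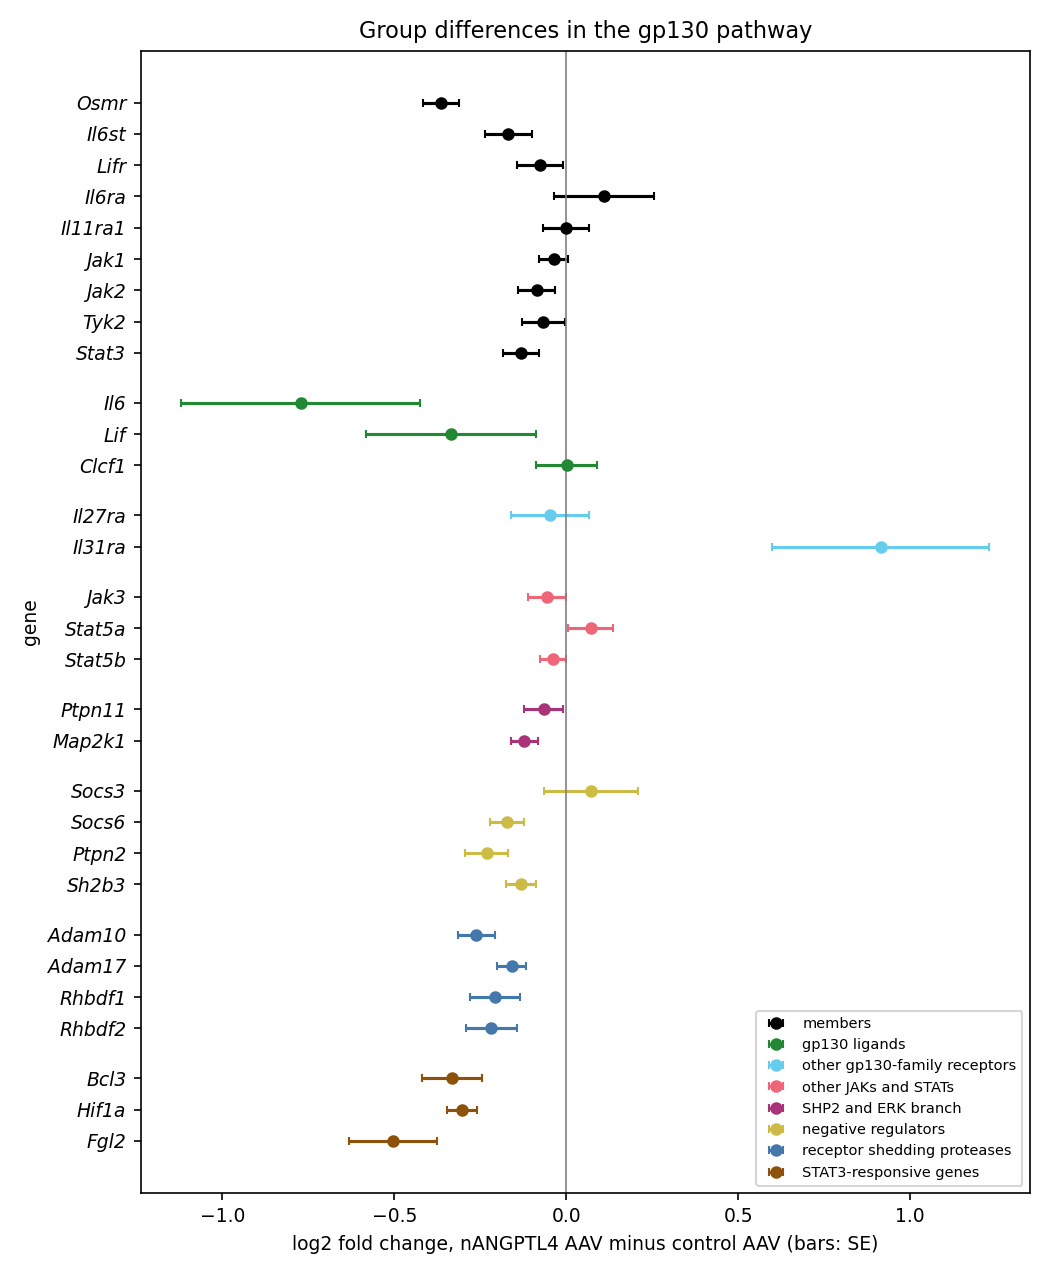
Log2 fold change (log2FC, nANGPTL4 AAV minus control AAV) with its SE for the 9 genes (members, in black) and for named pathway genes coloured by list. Osmr is at -0.36, Hif1a at -0.30 and Adam10 at -0.26, and Jak1, Jak3 and Clcf1 lie within 0.06 of 0.

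The SHP2 and ERK branch, which carries gp130 signals beside STAT3, had 16 genes tested, with 0 called by edgeR (4 lower at an unadjusted p under 0.05) and 1 by DESeq2, and with 13 of 16 negative and a median log2FC of -0.06. Ptpn11, which encodes SHP2, was at 62.1 ± 2.24 and 59.4 ± 4.43 CPM. The kinase Map2k1 was at 80.3 ± 2.14 and 73.8 ± 1.90 CPM (edgeR adjusted p = 0.152), and every nANGPTL4 AAV library was below every control AAV library.

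Of 16 negative regulators edgeR called 0 (6 lower and 1 higher at an unadjusted p under 0.05) and DESeq2 called 2 (Ptpn2 and Socs6, with negative values), with a median log2FC of -0.07. Socs3, the STAT3-induced inhibitor of gp130, was abundant and variable, at 747, 468, 556 and 753 CPM in control AAV and 736, 611, 671 and 635 CPM in nANGPTL4 AAV. The nANGPTL4 AAV values lay inside the control AAV range, and the log2FC was 0.07 (SE 0.14, edgeR adjusted p = 0.827). The members with the smallest p-values were the phosphatase Ptpn2 (23.0 ± 1.20 and 19.6 ± 1.23 CPM, edgeR adjusted p = 0.110), Socs6 (36.1 ± 0.880 and 32.0 ± 1.65 CPM, 0.118) and the adaptor Sh2b3, an inhibitor of JAK2 signalling (274 ± 8.74 and 251 ± 9.62 CPM, 0.169).

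The proteases that cut receptors from the cell surface formed the list with the lowest median. ADAM10 and ADAM17 shed the interleukin-6 receptor, and the iRhom proteins (Rhbdf1 and Rhbdf2) bring ADAM17 to the surface. All 4 had negative values and an unadjusted p under 0.05 in edgeR, which called 0 of 4, while DESeq2 called Adam10 and Adam17. The median log2FC was -0.21 (-0.17 with upper quartile scaling or library size only, where the median of all genes was 0.05). With TMM scaling, the 9256 genes with a mean log2 CPM of at least 3 had a median of -0.03. Adam10 was at 186, 191, 177 and 183 CPM in control AAV and 146, 143, 166 and 159 CPM in nANGPTL4 AAV, with no overlap, a log2FC of -0.26 (SE 0.05) and an edgeR adjusted p of 0.0691. Adam17 did not overlap between the groups either, at 110 ± 4.75 and 98.8 ± 2.44 CPM (edgeR adjusted p = 0.111). Rhbdf2 was at 236 ± 25.3 and 203 ± 11.7 CPM (edgeR adjusted p = 0.174), and Rhbdf1, named after its values were seen, at 148 ± 17.2 and 128 ± 2.97 CPM (0.177).

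STAT3-responsive genes were divided in sign. Of 30 listed genes 28 were tested, 13 positive and 15 negative, with a median log2FC of -0.06 (-0.02 after upper quartile scaling, -0.01 by library size only). With either of these scalings the median of all genes was 0.05. With TMM scaling, that of the 9256 genes with a mean log2 CPM of at least 3 was -0.03. The called gene was Hif1a, the oxygen-regulated transcription factor, whose result was known when the list was written. It fell from 80.8 ± 2.42 to 65.5 ± 2.43 CPM (SD, n = 4 each), a log2FC of -0.30 (SE 0.04, edgeR adjusted p = 0.0369), with no overlap between the groups. Of its exonic bases, 5.60% overlap an antisense gene and 2.51% the gene Gm49321 on the same strand. Of its 31-base stretches, 6.72% recur in other genes. Without any 1 library Hif1a was not called, nor with upper quartile scaling, library size only or the replicate block.

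Fgl2, which encodes a fibrinogen-like protein, was at 25.6 ± 4.56 and 18.0 ± 2.39 CPM (log2FC -0.50, SE 0.13, edgeR adjusted p = 0.10). Bcl3, a nuclear IκB protein that oncostatin M and interleukin-6 induce, was at 61.8 ± 7.10 and 49.1 ± 4.47 CPM (log2FC -0.33, SE 0.09, edgeR adjusted p = 0.107). The groups overlapped in both. The list also shares Fos and Junb with the immediate early genes, which cell handling induces. Those 12 genes were all positive and summed to 12106 to 18722 CPM in control AAV and 14319 to 19468 CPM in nANGPTL4 AAV, with 0 called by edgeR or by DESeq2, 0 at an unadjusted p under 0.05 in edgeR and an exact two-sided permutation p of 0.286 (0.381 adjusted over the 8 lists). Their part in the levels of Socs3 and the other STAT3-responsive genes was not tested.

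Cytokine receptors outside the gp130 family, set beside it for scale, had 22 of 27 genes tested, 0 called by edgeR (4 lower and 2 higher at an unadjusted p under 0.05), 2 called lower by DESeq2 and a median log2FC of 0.05, with 12 positive and 10 negative. Markers of cells in which Osmr is also known, fibroblasts and mural cells, had 7 of 12 genes positive, a median log2FC of 0.19 and overlapping summed levels (exact two-sided permutation test, p = 0.743, with 0.743 after adjustment over 8 lists). Of the mesothelial markers, 4 of 5 were under 1 CPM in every library, and the 2 tested were both positive, with a median log2FC of 0.49, 1 of them at an unadjusted p under 0.05 in edgeR and without overlap. The part of either cell type in the Osmr difference was not tested.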

How the data were processed

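RNA of sorted lung endothelial cells was sequenced in 4 control AAV and 4 nANGPTL4 AAV libraries. The authors deposited whole-number read counts per Ensembl gene, not normalized, on mm10, a build taken from the submitters' processing notes. For alignment and counting, no program, strand option or gene set is named in the labels or notes. The titles of the nANGPTL4 AAV samples read NT Treated, so their group rests on the treatment label. Of 31610 gene identifiers, 31491 matched a symbol.

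The counts were fitted with edgeR 4.0.16 in R 4.3.3 over all 18874 genes kept by filterByExpr (minimum count 10), with TMM scaling and the quasi-likelihood test of the group, and p-values were Benjamini-Hochberg adjusted over all of them, with calls at an adjusted p under 0.05. SEs come from the same fit. CPM per kb used exon lengths from GENCODE M21. Overlaps and shared 31-base stretches were counted in that annotation. The members and lists were chosen with earlier results of these data known. Named were the 9 genes, fixed pathway genes, called list genes, up to 3 list genes with the smallest unadjusted p under 0.05, and the 5 genes most like Osmr and Stat3. Alternatives were other scalings, filters, DESeq2 1.42.0, a replicate block, a looser threshold and each library left out. Some genes that the naming rule picked are not reported here.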

Additional observations from a re-analysis of the deposited data

Results flagged for a closer look

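In the 62 groups of 4 libraries checked, 4 held a library far from the other 3, where chance gives about 1 in 20 groups. Lifr in nANGPTL4 AAV library 2 was at 322 CPM, with the other 3 at 282 to 288 CPM. Stat3 in control AAV library 4 was at 357 CPM, with the others at 385 to 389 CPM. Ptpn2 in the same library was at 21.2 CPM, with the others at 23.4 to 23.8 CPM. Il11 in nANGPTL4 AAV library 4 was at 0.418 CPM, with the others at 0.164 to 0.195 CPM.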

How the results depend on the processing

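Of 31 named genes followed over up to 15 other fits (14 where a stricter filter dropped the gene), 24 kept their sign in all of them. Osmr was negative in all 15 and called in 4. It had a log2 fold change of -0.32 with upper quartile scaling, -0.32 with library size only and -0.36 with the replicate block, none of them called, and -0.39 to -0.32 without 1 library, called in 0 of 8. The number of the 9 genes called was accordingly 0 with upper quartile scaling, library size only and the replicate block and 0 to 0 without 1 library. Over all genes, 26 were called, against 4 with upper quartile scaling, 4 with library size only, 17 with the stricter filter (minimum count 50), 6 with the replicate block, 956 with DESeq2, 471 at an adjusted p under 0.1 and 1 to 2 without 1 library. Of the pathway genes outside the 9, 1 was called, against 0 with upper quartile scaling, library size only and the replicate block, 0 to 0 without 1 library, 8 with DESeq2 and 2 at an adjusted p under 0.1. The causes were not tested. Same-numbered libraries had correlations of deviations of 0.14, 0.16, -0.25 and -0.31, and those of different number ran from -0.37 to 0.31. With 4 libraries per group these values cannot decide whether the replicate numbers pair the libraries, so the block result is only a hint. The ratio of Il6st to Osmr per kb in control AAV was 13.2 by all exons and 7.68 by the longest transcript, which shortens Osmr most.

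Uncalled genes near 0 changed sign. Upper quartile scaling put Stat5b at 0.0023, and library size alone put it at 0.0059. Without 1 library the log2 fold change ran from -0.31 to 0.50 for Osm, -0.10 to 0.034 for Il27ra, -0.44 to 0.53 for Cntfr and -0.036 to 0.17 for Socs3. Depth limits genes with few counts, such as Osm at 4 to 29 per library.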
